A study of Mus musculus with 6 samples.

Results

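The genes described here are the 10 Notch receptors, ligands and modulators whose symbols were looked up in the expression table, namely *Notch1*, *Notch2*, *Notch3*, *Notch4*, *Jag1*, *Jag2*, *Dll1*, *Dll4*, *Nrarp* and *Mfng*. All 10 were among the 15280 genes of the table, so all 10 had passed the authors' minimum of 10 fragments over the libraries. RNA-Seq was analysed from 3 parous female BK5.ATF3 mice. In this strain the ATF3 transgene is overexpressed in basal epithelial cells of the mammary gland, where the BK5 (keratin 5) promoter is active. From each mouse there was 1 mammary tumor (T11035, T11640 and T9232) and 1 normal, adjacent mammary gland (M11035, M11640 and M9232), so n = 3 in each group. Tumors appeared at 6 to 12 months and were taken at a size of 1.5 cm, and each female had raised 1 litter. Glands and tumors all carry the ATF3 transgene, so the comparison is of tumor with gland in transgenic animals, with no wild-type tissue. The glands lie beside a tumor and are whole tissue.

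Notch receptors are membrane proteins that are activated by Jagged and Delta-like ligands on a neighbouring cell. Ligand binding lets ADAM proteases and then γ-secretase cut the receptor, and the freed intracellular domain enters the nucleus, joins RBP-J and Mastermind proteins and switches on genes of the Hes and Hey families. Fringe enzymes such as Mfng add sugars to the receptor and alter which ligands it answers to, and Nrarp is a target gene whose product limits the signal by acting on the intracellular domain. In the mammary gland, Notch signaling is known for its part in luminal cell fate, and in stratified epithelia Notch1 and the Jagged ligands act in the step from basal to suprabasal keratinocytes.

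In the tumors, *Notch1*, *Jag1*, *Jag2* and *Nrarp* were higher than in the normal glands and *Mfng* was lower, with no overlap between the groups in any of these 5 genes. *Nrarp* had the largest rise of the 10 genes, with a log2 fold change of 2.85. *Mfng* was the one gene with a negative log2 fold change, at -2.57. *Notch2*, the receptor with the highest level, differed little. *Notch4*, *Dll1* and *Dll4* overlapped between the groups. A gene was called a differentially expressed gene (DEG) at FDR of at most 0.05 and FC of at least 2 in limma's test on log2(CPM + 0.5) across all genes, where CPM is the number of fragments scaled to a common effective library size. By this rule 4 of the 10 genes were upregulated and 1 was downregulated, beside 14.5% and 13.7% of all genes, so that 5 of 10 were DEGs beside 28.2% of the table. All 3 tumors were higher than all 3 glands in 5 of the 10 genes, beside 27.6% of all genes, and lower in 1, beside 26.3%. Together these are 6 of 10 beside 54%, a share close to the background. The median log2 fold change was 0.51 over the 10 genes and -0.0028 over all genes.

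**Figure D1:**
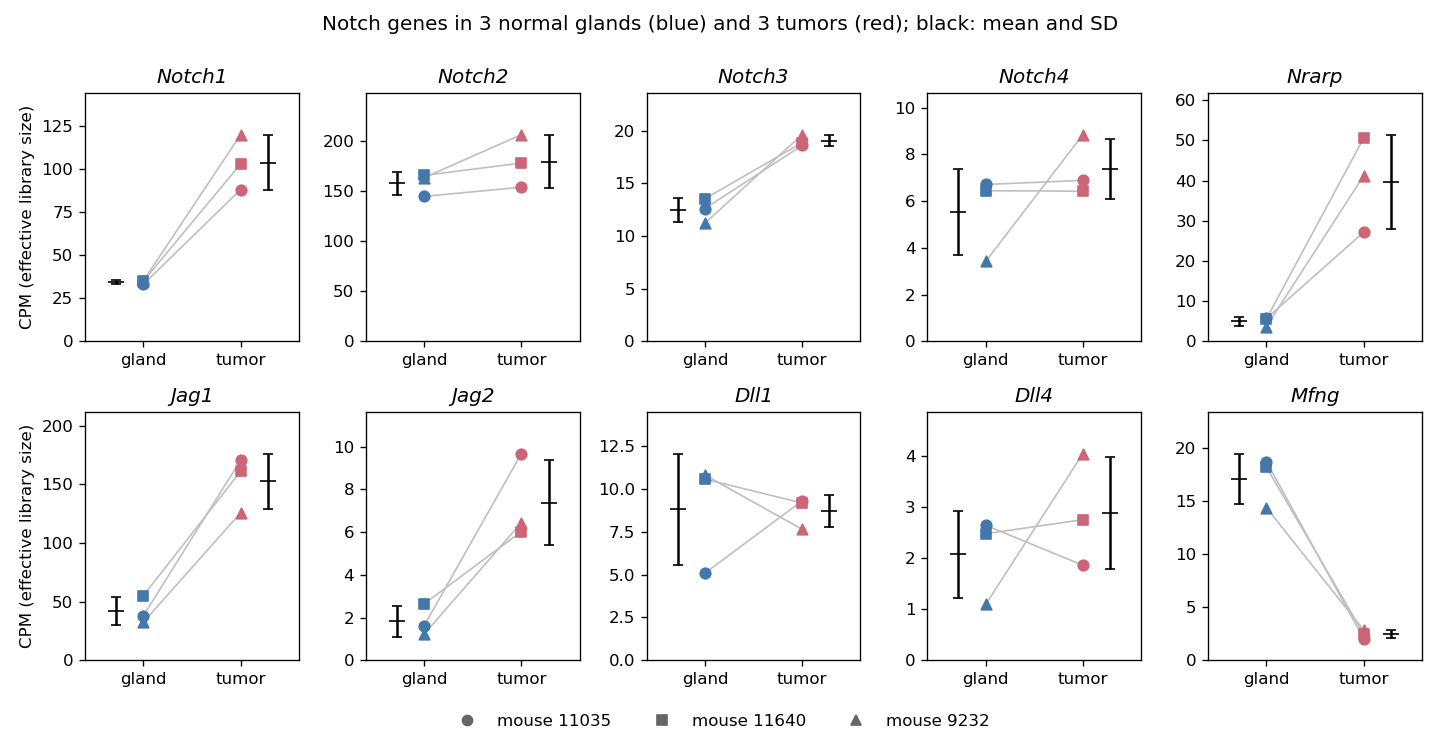
Expression of the 10 Notch genes in CPM (y axis, from 0) in each normal gland (blue) and tumor (red), with grey lines joining the tissues of 1 mouse, marker shapes for the mice, and black bars for the mean and SD of 3. The 3 tumors lie above the 3 glands in *Notch1*, *Notch3*, *Jag1*, *Jag2* and *Nrarp* and below them in *Mfng*.

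Both tissues were checked against marker genes. In the tumors all 8 basal and squamous markers were upregulated DEGs, and their summed expression was 3302 to 4545 CPM against 43.1 to 100.1 CPM in the glands, with *Lor* at 0 in every gland. Of 5 fibroblast markers, the collagen genes *Col1a1* and *Col1a2* were upregulated DEGs with log2 fold changes of 4.63 and 3.75, and *Pdgfra*, *Dcn* and *Lum* were not DEGs. The fibroblast sum was 645 to 2409 CPM in the glands and 5516 to 5904 CPM in the tumors. Of 6 macrophage markers, *Itgam* was upregulated and *Cd163* downregulated, and their sums overlapped, at 285 to 905 CPM in the glands and 573 to 845 CPM in the tumors. The part of basal or squamous cells, fibroblasts and macrophages in the *Notch1*, *Jag1*, *Jag2* and *Nrarp* values was not tested. All 7 adipocyte markers, 9 of 9 B cell markers and 8 of 8 T cell markers were downregulated DEGs. Of 5 skeletal muscle markers, *Mylpf* was a downregulated DEG, and they summed to 3679 and 1455 CPM in glands M11035 and M11640, but to only 4.24 CPM in gland M9232 and to 7.08 to 13.8 CPM in the tumors. With gland M9232 as the only control, *Notch1*, *Jag1*, *Jag2*, *Nrarp* and *Mfng* were called in the same direction as with all 3 glands, and the other members were not called. Of 7 luminal markers, *Krt8*, *Krt18* and *Krt19* were upregulated and *Elf5*, *Esr1* and *Prlr* downregulated. The mouse gene *Atf3* had 4.47, 8.09 and 22.6 CPM in glands M11035, M11640 and M9232 and 13.4, 18.4 and 19.3 CPM in the tumors of the same mice. It was not a DEG (log2 fold change 0.80 by limma, adjusted p = 0.22). Whether fragments of the ATF3 transgene are counted for this gene is not given in the sources used here. These values therefore cannot be read as the level of the transgene. Depth was 4750989 to 7806908 fragments on genes per library, and 3 fragments correspond to 0.393 to 0.610 CPM. In bulk tissue, fewer cells of a type and less RNA per cell cannot be told apart.

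The DNA upstream of the genes was read for the binding motif of RBP-J, the DNA-binding partner of Notch, to show which letters lie there. The motif searched was TGGGAA on both strands, with its longer form GTGGGAA, which holds the shorter one, in the 1000 bases before the annotated start of each gene (mm9, GENCODE vM1). TGGGAA was present for 6 of the 10 Notch genes, beside 62.8% of the 14891 genes of the table with such a window, and GTGGGAA for 2 of 10 beside 19.4%. Of 10 listed target genes, 9 held TGGGAA and 3 held GTGGGAA. The match nearest to the start is shown for each Notch gene that was a DEG, and for the target genes *Hes1*, *Hey1* and *Hey2* whose values follow, with the match in capitals (TTCCCA is the motif on the other strand). They are on the strand of the gene, 5′ to 3′.
Notch1 (chr2:26372200-26372229, minus strand): aaaggttgcagcTTCCCAcccacatggctg
Jag1 (chr2:136943014-136943043, minus strand): agtttttcaaagTTCCCAgcagagtctgcc
Jag2 (chr12:114168588-114168617, minus strand): tcagtttggaatTGGGAAcagcctgcagga
Nrarp (chr2:25035427-25035456, plus strand): tggagccttgccTTCCCAgccagcgccagc
Mfng (chr15:78603972-78604001, minus strand): tgcctctggggcTTCCCAggcctagccccg
Hes1 (chr16:30064212-30064241, plus strand): gggggcggggttTTCCCAggctcgagcaca
Hey1 (chr3:8667414-8667443, minus strand): ggcgccggcactTTCCCAcggcccgcggcg
Hey2 (chr10:30562779-30562808, minus strand): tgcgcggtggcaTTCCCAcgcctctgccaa
These matches begin 34 bases before the start of *Notch1*, 651 before *Jag1*, 899 before *Jag2*, 839 before *Nrarp* and 84 before *Mfng*. Those of *Hes1*, *Hey1* and *Hey2* begin 246, 392 and 189 bases before the start. The matches shown for *Notch1*, *Hey1* and *Hey2* are part of the longer form, and *Mfng* has another match to it at 177 bases. A match of letters is a description and not a binding site. In the RefSeq promoters (GRCm38.p6, 250 bases before to 50 after the start), 9 of the 10 Notch genes had an entry and 0 held TGGGAA, beside 27.3% of the 10726 genes of the table with an entry. Of the 5 listed target genes with an entry, *Hey2* and *Cdkn1a* (1 of its 2 promoters) held TGGGAA there, and *Hey2* also GTGGGAA. Those windows follow the starts of another annotation, and the match shown for *Notch1* lies outside its RefSeq window.

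Of the receptors, *Notch1* (chromosome 2, 26313423 to 26372183, mm9 as for all positions here) was the one DEG. It had 33.1, 35.0 and 35.2 CPM in glands M11035, M11640 and M9232, and 88.0, 103 and 120 CPM in tumors T11035, T11640 and T9232. This order is kept below. The 3 glands were nearly equal, and every tumor was more than 50 CPM above every gland. The log2 fold change was 1.56 (limma, standard error (SE) 0.16, adjusted p = 1.21e-04), with 1.40, 1.54 and 1.76 for the animals bearing T11035, T11640 and T9232.

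*Notch2* (chromosome 3, 97817461 to 97954290) is a receptor with broad expression. It had 144, 165 and 163 CPM in the glands and 154, 178 and 206 CPM in the tumors, so the groups overlapped, although each tumor was above the gland of its own mouse. The log2 fold change of 0.18 had a 95% interval from -0.17 to 0.52 (limma, adjusted p = 0.39), and the interval does not reach the FC threshold in either direction. *Notch3* (chromosome 17, 32257765 to 32303825), known for its part in vascular smooth muscle cells and pericytes, had 12.6, 13.5 and 11.2 CPM in the glands and 18.6, 18.9 and 19.6 CPM in the tumors. All 3 tumors were higher and close to each other. The difference passed the FDR and not the FC threshold, with a log2 fold change of 0.60 (limma, SE 0.18, adjusted p = 0.0259). It missed the FDR without gland M9232 or any one of the tumors, with adjusted p from 0.0573 to 0.0844 (limma), and passed it with the mouse as a block (0.0438). Of 8 mural cell markers, *Pdgfrb* was an upregulated DEG and *Myh11* and *Des* were downregulated DEGs. Their sum was 390 to 621 CPM in the glands and 297 to 391 CPM in the tumors. These sums overlapped narrowly, at gland M11035 and tumor T9232. They include *Des*, with 106, 32.4 and 7.93 CPM in the glands and 2.98, 2.88 and 5.25 CPM in the tumors. Over the glands *Des* fell in the same order as the skeletal muscle sums, while the mural sums rose, at 390, 581 and 621 CPM. The part of skeletal muscle RNA in the mural sums was not tested. The part of mural cells in the *Notch3* values was not tested.

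*Notch4* (chromosome 17, 34701213 to 34725448), a receptor of endothelial cells, had 6.71, 6.44 and 3.42 CPM in the glands and 6.88, 6.42 and 8.84 CPM in the tumors. Gland M9232 was low and tumor T9232 high, and the other 4 libraries lay between 6.42 and 6.88 CPM. The log2 fold change was 0.43 with a 95% interval from -0.25 to 1.11 (limma, adjusted p = 0.28). In the animal bearing T9232 alone it was 1.25, beside 0.03 and -0.0042 for the animals bearing T11035 and T11640. Of 12 endothelial markers, 0 were upregulated and 3 downregulated DEGs (*Kdr*, *Tek* and *Vwf*). Their sum was 432 to 583 CPM in the glands and 278 to 386 CPM in the tumors, and none of the markers was at 0 in any library. *Cdh5*, a cadherin of endothelial cells, had a log2 fold change of -0.12 and *Pecam1* one of -0.74 (limma, adjusted p = 0.72 and 0.017). Their part in the *Notch4* values was not tested.

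**Figure D2:**
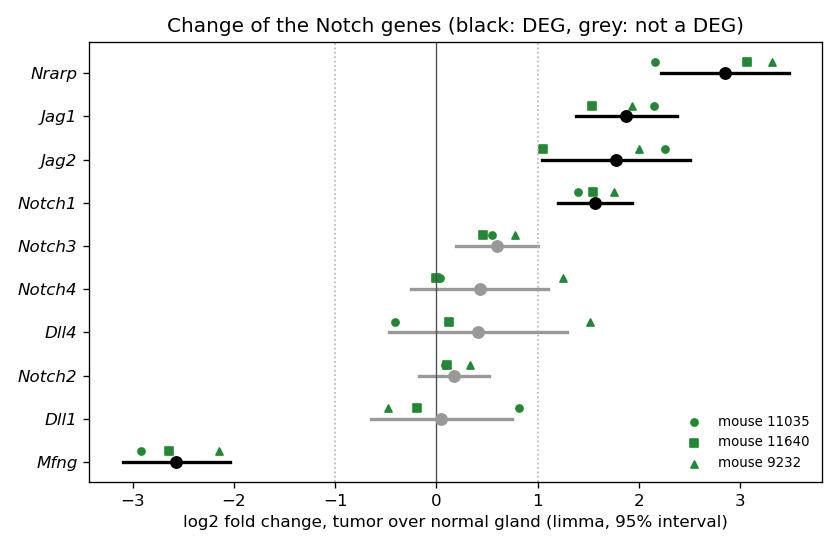
Log2 fold change of tumor over normal gland for the 10 Notch genes (x axis, limma, with the 95% interval as a line, black for DEGs and grey for the others), with green symbols for the ratio within each mouse and dotted lines at the FC threshold of 2 in both directions. *Nrarp*, *Jag1*, *Jag2* and *Notch1* lie above the threshold with their whole interval, and *Mfng* below it.

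Among the ligands the Jagged and Delta-like genes differed in their values. *Jag1* (chromosome 2, 136907192 to 136942380) had 38.0, 55.2 and 32.6 CPM in the glands and 171, 161 and 126 CPM in the tumors. The lowest tumor was above 2 times the highest gland. The log2 fold change was 1.87 (limma, SE 0.22, adjusted p = 2.51e-04), and it was 2.15, 1.54 and 1.93 in the 3 mice in the same order. *Jag2* (chromosome 12, 114146801 to 114167706) was much less abundant, with 1.63, 2.64 and 1.23 CPM in the glands and 9.68, 6.03 and 6.44 CPM in the tumors. In fragments these are 8, 16 and 9 in the glands and 52, 46 and 43 in the tumors. The groups did not overlap, and the log2 fold change was 1.77 (limma, SE 0.32, adjusted p = 0.00269), with the smallest rise, 1.05, in the animal bearing T11640. The coding transcripts of *Jag1* and *Jag2* align at 68.5% identity over 2221 bases. For none of the 10 Notch genes was there a transcript of another gene with at least 95% identity over 500 bases, and no exon of the 10 overlaps another gene of the table.

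*Dll1* (chromosome 17, 15504318 to 15513836), a Delta-like ligand, had 5.08, 10.6 and 10.8 CPM in the glands and 9.30, 9.17 and 7.64 CPM in the tumors. Gland M11035 was low, and the tumors lay between it and the other two glands. Its log2 fold change of 0.05 had a 95% interval from -0.65 to 0.74 (limma, adjusted p = 0.92), and its sign changed with the setting, for instance to -0.29 without gland M11035. *Dll4* (chromosome 2, 119151520 to 119161698), the Delta-like ligand of sprouting endothelium, had 2.64, 2.48 and 1.09 CPM in the glands and 1.86, 2.75 and 4.05 CPM in the tumors. These rest on only 8 to 27 fragments a library. As for *Notch4*, the lowest value was that of gland M9232 and the highest that of tumor T9232. The log2 fold change was 0.41 with a 95% interval from -0.47 to 1.29 (limma, adjusted p = 0.43). The interval holds both no change and a doubling, so a difference was not detectable at this depth and number of mice. The endothelial sums given for *Notch4* stand beside *Dll4* too.

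*Nrarp* (chromosome 2, 25036278 to 25038850) is a single-exon gene. It had 5.69, 5.62 and 3.69 CPM in the glands and 27.2, 50.6 and 41.2 CPM in the tumors. The tumors differed among themselves, with T11035 lowest, but every tumor was over 20 CPM above every gland. The log2 fold change was 2.85 (limma, SE 0.28, adjusted p = 9.36e-05), with 2.16, 3.06 and 3.31 for the animals bearing T11035, T11640 and T9232.

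*Mfng* (chromosome 15, 78586312 to 78603905), manic fringe, had 18.7, 18.2 and 14.4 CPM in the glands and 2.05, 2.49 and 2.85 CPM in the tumors. These are 307 fragments over the 3 glands and 49 over the 3 tumors. The lowest gland was at over 5 times the highest tumor. Its log2 fold change was -2.57 (limma, SE 0.23, adjusted p = 6.17e-05), with -2.91, -2.64 and -2.15 in the 3 mice. *Mfng* is known to be expressed in lymphocytes among other cells. The summed B cell markers were 344 to 870 CPM in the glands and 16.4 to 16.9 CPM in the tumors. For the T cell markers the sums were 191 to 485 and 29.8 to 49.3 CPM. *Pax5*, a transcription factor of B cells, was at 0 in tumors T11640 and T9232. In glands M11035, M11640 and M9232 the B cell sums were 870, 344 and 557 CPM, beside T cell sums of 485, 191 and 352 CPM. The adipocyte sums were 4723, 6246 and 3089 CPM in the same glands and 158 to 215 CPM in the tumors. The part of these cells in the *Mfng* values was not tested.

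**Figure D3:**
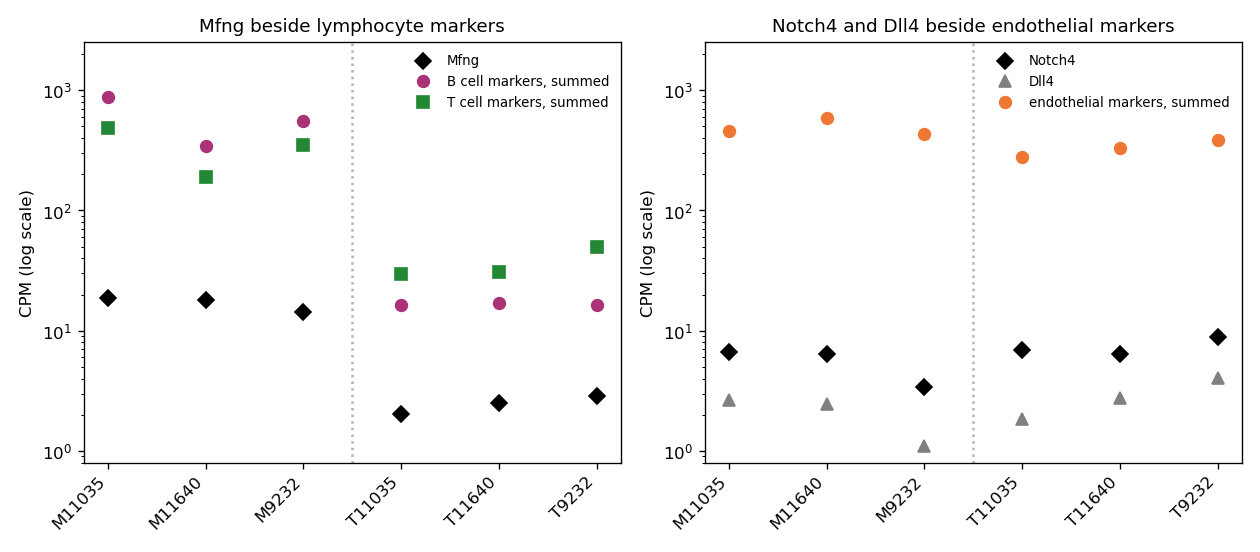
CPM on a log scale (y axis) in each library (x axis, glands left and tumors right of the dotted line) for *Mfng* beside the summed B cell and T cell markers, and for *Notch4* and *Dll4* beside the summed endothelial markers. *Mfng* and both lymphocyte sums are lower in all 3 tumors, while *Notch4* and *Dll4* overlap between the tissues and the endothelial sums of the tumors lie below those of the glands.

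Levels of different genes were compared as CPM per kb of exon (merged exons of GENCODE vM1). In the glands the order of the mean levels was *Notch2* (15.0 ± 1.10 CPM per kb, SD, n = 3), *Jag1* (7.19 ± 2.03), *Mfng* (6.02 ± 0.834), *Notch1* (2.42 ± 0.0791), *Dll1* (2.09 ± 0.768), *Nrarp* (1.94 ± 0.440), *Notch3* (1.55 ± 0.146), *Notch4* (0.685 ± 0.227), *Dll4* (0.538 ± 0.221) and *Jag2* (0.452 ± 0.180). Of these neighbours, *Jag1* and *Mfng* overlapped in their ranges, as did each pair from *Notch1* to *Notch3* and from *Notch4* to *Jag2*. In the tumors the order of the levels per kb was *Jag1* (26.2 ± 4.06 CPM per kb), *Notch2* (17.0 ± 2.50), *Nrarp* (15.4 ± 4.58), *Notch1* (7.28 ± 1.12), *Notch3* (2.37 ± 0.0659), *Dll1* (2.06 ± 0.219), *Jag2* (1.82 ± 0.493), *Notch4* (0.916 ± 0.159), *Mfng* (0.867 ± 0.141) and *Dll4* (0.749 ± 0.285). *Jag1* thus took the first place from *Notch2*, and *Mfng* moved from the third place to the ninth. In the tumors *Notch2* overlapped with *Nrarp*, *Dll1* with *Jag2*, *Notch4* with *Mfng* and *Mfng* with *Dll4*. The length matters for *Notch1*, whose merged exons span 14.2 kb and whose longest coding transcript is 9.49 kb. Per kb of the longest coding transcript, *Mfng* was above *Jag1* in the glands, and in the tumors *Dll1* was above *Notch3* and *Mfng* above *Notch4*.

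Summed per kb, the 4 receptors had 18.5, 20.7 and 19.8 CPM per kb in the glands and 24.0, 27.3 and 31.6 CPM per kb in the tumors. The 4 ligands had 8.82, 13.3 and 8.74 against 34.4, 32.0 and 26.0 CPM per kb, so the tumor mean was 3.00 times the gland mean for ligands and 1.40 times for receptors. *Notch1* made up 12.6%, 11.9% and 12.5% of the receptor sum in the glands and 25.8%, 26.5% and 26.7% in the tumors, and *Notch2* 74.4%, 76.1% and 78.4% against 61.0%, 62.0% and 62.1%. Within each tissue the shares of both genes lay close together in the 3 mice. The ratio of *Notch1* to *Notch2* per kb was 0.162 ± 0.00691 in the glands and 0.427 ± 0.00335 in the tumors (SD, n = 3). *Jag1* made up 64.0% to 74.0% of the ligand sum in the glands and 82.9% to 86.3% in the tumors. *Dll1* had 13.7%, 18.9% and 29.3% in the glands and 6.42%, 6.79% and 6.96% in the tumors, a lower share at a similar level. For *Notch1*, *Notch2*, *Jag1* and *Dll1* the shares of the groups did not overlap, and each gave p = 0.1, the smallest that a two-sided exact permutation test of 3 against 3 allows (adjusted p = 0.2 over the 8 shares). *Jag2* and *Dll4* gave p = 0.2, *Notch3* p = 0.4 and *Notch4* p = 0.8 in the same exact permutation test.

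**Figure D4:**
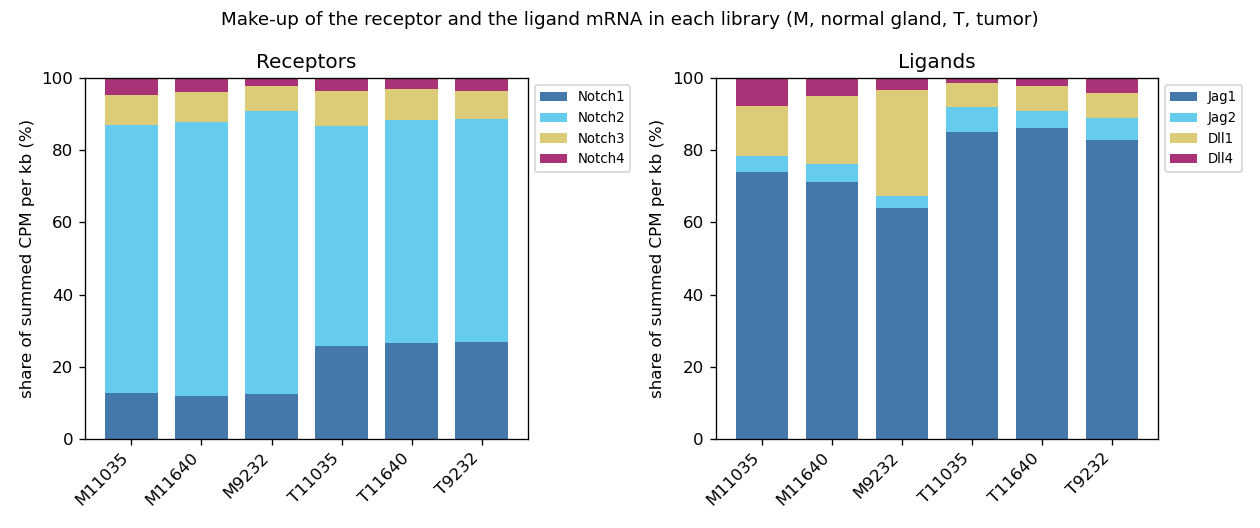
Share of each receptor (left) and each ligand (right) in the summed CPM per kb of its class (y axis, %) in each library (x axis). The *Notch1* part is 11.9% to 12.6% in the glands and 25.8% to 26.7% in the tumors, and the *Dll1* part is smaller in every tumor than in any gland.

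The other genes of the pathway were taken from lists by role. Of 70 listed genes beyond the 10, 62 could be tested. There were 6 upregulated and 7 downregulated DEGs among them, together 21.0% beside 28.2% of all genes. Their median log2 fold change was 0.13. Another 12 passed the FDR but not the FC threshold. The listed genes *Dll3*, *Dlk1*, *Dlk2*, *Dner*, *Hes2*, *Hes5*, *Hes7* and *Ptcra* were not in the table. The ligand *Egfl7* is expressed by endothelium, shares exon sequence with *Agpat2* and was not a DEG.

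Among listed genes that respond to Notch, 4 of 10 were upregulated and 1 was downregulated, beside 14.5% and 13.7% of all genes. *Hes1*, a repressor that is the best known target, had 3.86, 2.81 and 2.19 CPM in the glands and 9.49, 8.39 and 10.9 CPM in the tumors, with no overlap (log2 fold change 1.57 by limma, SE 0.27, adjusted p = 0.00184). *Hes6*, also listed, was not a DEG (log2 fold change -0.27 by limma, adjusted p = 0.62). *Cdkn1a*, *Ccnd1* and *Id3*, which also answer to other pathways, had log2 fold changes of 3.76, 2.65 and 1.06. *Id3* was under the FC threshold without gland M9232 or tumor T9232, at 0.84 and 0.98, and *Ccnd1* shares exon sequence with *Oraov1*. *Hey2*, a Hey family repressor known in vessels and heart, was the downregulated gene, with 5.08, 6.77 and 1.91 CPM in the glands and 1.12, 1.44 and 0.150 CPM in the tumors (log2 fold change -1.86 by limma, adjusted p = 0.0239). Its call did not hold without gland M11035, gland M11640 or tumor T9232 (limma, adjusted p = 0.0654, 0.0838 and 0.0759). With gland M9232 as the only control its log2 fold change was -0.93 (limma, adjusted p = 0.39). *Hey1* overlapped between the groups, with 17.1, 52.0 and 28.3 CPM in the glands and 17.7, 19.7 and 11.8 CPM in the tumors (log2 fold change -0.85 by limma, adjusted p = 0.10). Without gland M11035 it was called, at -1.23, while the log2 fold change was -0.44 without gland M11640 and -0.64 without tumor T9232. *Heyl* passed the FDR but not the FC threshold, with a log2 fold change of 0.93 (limma, adjusted p = 0.0444), and was called without gland M11640, at 1.17. Without any other single library it missed the FDR, with log2 fold changes from 0.67 to 1.05 (limma, adjusted p from 0.0634 to 0.175).

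Of the other fringe enzymes, *Lfng* had 9.76, 3.80 and 5.20 CPM in the glands and 2.42, 3.15 and 3.45 CPM in the tumors (log2 fold change -0.86 by limma, adjusted p = 0.0813). It was called without gland M11640, at -1.14, while the log2 fold change was -0.51 without gland M11035, where *Lfng* was highest. *Rfng* had 2.44, 3.14 and 2.87 CPM in the glands and 5.40, 4.59 and 4.05 CPM in the tumors (log2 fold change 0.64 by limma, adjusted p = 0.0747). *Mfng* was therefore the only one of the 3 fringe genes that was a DEG with all 6 libraries. *Poglut1*, which adds glucose to the receptor, passed the FDR only, with a log2 fold change of 0.88.

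In the cleavage group, *Psen2*, a catalytic subunit of γ-secretase, was the one DEG of 9, at 12.2 ± 4.76 CPM in the glands and 4.12 ± 0.372 CPM in the tumors (log2 fold change -1.39 by limma, adjusted p = 0.00553). *Furin*, *Adam10* and *Adam17*, which cut the receptor before γ-secretase does, passed the FDR but not the FC threshold, with log2 fold changes of 0.98, 0.74 and 0.42, and *Adam17* shares exon sequence with *Iah1*. In the nuclear complex *Rbpj* had 92.1, 153 and 130 CPM in the glands and 153, 163 and 161 CPM in the tumors, and was not a DEG (log2 fold change 0.38 by limma, adjusted p = 0.15). Of the Mastermind coactivators, *Maml3* rose from 9.43 ± 1.10 to 34.7 ± 3.16 CPM and *Maml2* fell from 57.2 ± 12.7 to 23.1 ± 0.974 CPM, with log2 fold changes of 1.83 and -1.26 (limma, adjusted p = 1.05e-04 and 0.00128). *Maml1* had a log2 fold change of -0.08. The acetyltransferase *Kat2b* lay at the FC threshold with -1.01 and was under it without gland M9232 or tumor T11035, at -0.94 and -0.99.

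Among the regulators of receptor turnover, the ubiquitin ligase *Nedd4l* fell from 106 ± 12.9 to 34.1 ± 3.65 CPM (log2 fold change -1.62 by limma, adjusted p = 1.04e-04). *Dtx1*, a Deltex ubiquitin ligase, was a downregulated DEG with 39 fragments in the 3 glands and 1 in the 3 tumors. *Numb*, an inhibitor of the receptor, had 34.0, 35.3 and 33.2 CPM in the glands and 35.2, 36.8 and 35.4 CPM in the tumors. Of the non-canonical ligands, *Cntn1* was downregulated and *Mfap5* upregulated, with log2 fold changes of -3.21 and 1.92 (limma, adjusted p = 0.00101 and 0.0205). *Mfap5*, a microfibril protein of fibroblasts, lost its call without tumor T11640 or tumor T9232, with adjusted p of 0.0789 and 0.0796 (limma). None of the 11 corepressor genes and none of the 4 ligand endocytosis genes was a DEG. *Tle3*, a Groucho-type corepressor, came closest, with a log2 fold change of 0.97.

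**Figure D5:**
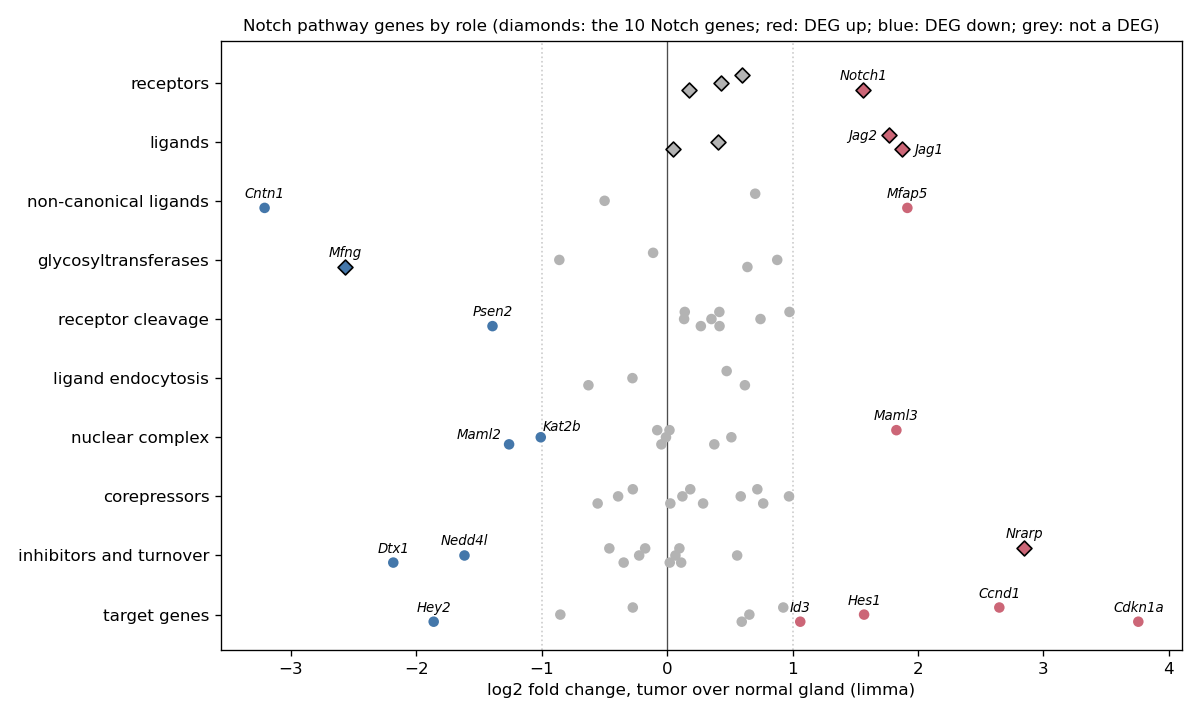
Log2 fold change of tumor over normal gland (x axis, limma) for the 72 Notch pathway genes in the table, 1 row per role, with diamonds for the 10 Notch genes, red and blue for upregulated and downregulated DEGs and grey for the others, and dotted lines at the FC threshold. DEGs in both directions occur among the non-canonical ligands, the nuclear complex, the inhibitors and turnover genes and the target genes. The position of *Dtx1* depends on the pseudocount.

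The genes whose profile was most like that of each Notch gene were ranked by Pearson's r of log2(CPM + 0.5) over the 6 libraries among the 11401 genes whose mean reached 5 CPM. These libraries share the tissue difference, and with 6 points many genes reach a high r, so this is a description. For *Notch1* they were *Mars2*, *Csrp2* and *Crct1* (r = 0.9999, 0.9997 and 0.9992). For *Jag1* they were *Wnt5a*, *Zfp185* and *4930405J17Rik*, for *Jag2* *Zfp462*, *Zfp948* and *Bet1l*, for *Nrarp* *Lrrc28*, *Vps36* and *Ptges3*, and for *Mfng* *Oplah*, *Slc25a20* and *Add3*. *Notch3* was closest to *Mcam*, *Ippk* and *9130008F23Rik*, with nearly equal r of 0.9973, 0.9971 and 0.9967. For the other members the nearest genes were *Rac1* for *Notch2*, *Rwdd1* for *Notch4*, *Tanc1* for *Dll1* and *Dab2ip* for *Dll4*, with r between 0.970 and 0.986.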

How the data were processed

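RNA-Seq data of 3 mammary tumors and 3 matched normal, adjacent mammary glands of BK5.ATF3 mice were used, grouped by the labels. According to the methods and the submitters' processing notes, read pairs were mapped to mm9 with TopHat2 2.0.3, counted per RefSeq gene with HTSeq 0.5.3p9 and normalized with edgeR 3.6.1, after removal of genes with fewer than 10 fragments. The library kit was Ovation RNA-Seq System V2, and whether reads were counted by strand is not given in the sources used here. The authors deposited a normalized signal per gene, in CPM on edgeR's effective library size. Values in each library came in whole steps of 1 fragment (100% of values, tolerance 0.001), so fragments could be recovered, between 4750989 and 7806908 per library. The unit was recorded as a signal, since the columns sum to between 952151 and 1041166, and takes the same test as CPM. All 6 columns were used.

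The test was that of limma 3.58.1 (R 4.3.3, trend, no block, two-sided) applied to log2(CPM + 0.5), and p-values were adjusted by Benjamini-Hochberg across all 15280 genes. The fit was tested on simulated data. The 16 alternatives changed the pseudocount, filter, scaling, block or tool (edgeR 4.0.16, DESeq2 1.42.0 on recovered fragments) or left out libraries. The mouse numbers pair the samples, since both libraries come from 1 animal. As a check, the deviations of both tissues from their means had r = 0.107, 0.151 and 0.0168 for the animals bearing T11035, T11640 and T9232. The methods name no mouse term, so the block is an alternative. Means and SDs are over 3 mice, and the floor of 3 fragments covers counting error only. The members and lists were chosen with earlier results of these data known. Named are the 10 genes, all other pathway DEGs, *Rbpj*, *Hes1*, *Hes5*, the fringe and Hey genes, defining markers and the most alike genes. The 3 most alike genes are given for the DEGs among the 10 and for *Notch3*, and only the nearest for the other members. *Numb*, *Poglut1*, *Furin*, *Adam10*, *Adam17*, *Maml1*, *Egfl7*, *Tle3*, *Hes6*, *Atf3* and some markers were named in addition, after their values were seen. Transcripts were compared with BLAST 2.17.0.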

Additional observations from a re-analysis of the deposited data

How the results depend on the processing

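In each of the 16 alternatives, 4 Notch genes were called upregulated and 1 downregulated. By the call, which needs both thresholds, and by direction, 9 of the 10 genes stayed as they were. The exception was *Dll1*, which was never called and whose log2 fold change was -0.0321 with edgeR's quasi-likelihood test, -0.0271 with DESeq2, -0.29 without gland M11035 (-0.29 to 0.22 over the libraries left out in turn) and -0.30 with only gland M9232 as control. This last setting, which leaves out both glands with muscle markers, was chosen after seeing the data and assumes that the lone gland varies like the tumors. Single thresholds were crossed without a change of call. *Dll4* had a log2 fold change of 1.04 with only gland M9232 as control, and *Notch3* missed the FDR in the settings named above. The mouse as a replicate block changed no call of the 10 genes, with 4 up and 1 down, also in edgeR, and gave 2205 upregulated and 2093 downregulated DEGs over all genes, beside 2212 and 2097 without the block. On the recovered fragments edgeR called 2238 up and 2224 down, and DESeq2 2240 and 2196. Over all genes the counts ran from 1667 to 2270 up and from 1539 to 2224 down. Of the other pathway genes 5 to 7 were up and 6 to 7 down. Without division by gene length the share of *Notch1* rose by 17.1 percentage points instead of 14.0 and that of *Notch2* differed by -17.1 instead of -14.6. With the longest coding transcript as length, added after seeing the data, these were 17.4 and -17.2. The *Notch4* share turned from -0.184 to 0.317 points without gland M11035 and to 0.0156 without tumor T11640, and over the libraries left out in turn it ran from -0.865 to 0.317. *Dll4*, *Jag2* and *Notch4* are limited by depth, with under 60 fragments in each library. Counts were also low for *Mfng* in the tumors, at 11, 19 and 19 fragments, and for *Nrarp* in the glands, at 28, 34 and 27.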
